A study of Mus musculus with 10 samples.

Results

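The 10 genes described here encode the core of the transforming growth factor beta (TGF-β) pathway: the ligands Tgfb1, Tgfb2 and Tgfb3, the receptors Tgfbr1 and Tgfbr2, the signal transducers Smad2, Smad3 and Smad4, the inhibitory Smad7, and the pseudoreceptor Bambi. They were chosen by name, as members of the pathway, with earlier results of these data known. All 10 of 10 exceeded a count of 10 in 6 or more of the 10 mice and were tested with the rest of the 13453 genes that passed this filter, out of 57185 genes with counts. Read counts were measured by RNA sequencing of ventricular apex tissue, with 1 library for each of 5 MLPKO and 5 MLPKO-cRADKO mice.

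Both genotypes lacked muscle LIM protein, the product of Csrp3, which gives dilated cardiomyopathy, and both carried floxed alleles of Rrad, the gene for the calcium channel inhibitor RAD. The MLPKO-cRADKO mice also carried MYH6-MerCreMer, a tamoxifen-inducible Cre under a cardiomyocyte promoter. The MLPKO mice had no Cre. All mice were males that received 1 dose of tamoxifen (100 mg/kg) at 10 weeks of age. The labels give the hearts both as taken 1 month after tamoxifen and as 16 weeks of age, which do not match, and the sources used here do not settle which holds. Effects of the activated Cre and of the loss of RAD cannot be told apart, since no mouse carried Cre without floxed Rrad.

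TGF-β ligands are secreted in a latent form and are released from it by integrins, thrombospondin and proteases. The active ligand binds the type II receptor kinase, which phosphorylates the type I receptor, and this in turn phosphorylates SMAD2 and SMAD3, which enter the nucleus with SMAD4 and regulate transcription. SMAD7 and BAMBI dampen the signal at the receptor, and in heart the pathway is best known for its part in fibroblast activation and matrix deposition.

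Total counts per library lay between 33457406 and 49965101, with a median of 43738141. Normalized counts of Rrad were 10849, 11066, 5774, 6751 and 11644 in MLPKO mice 1 to 5, and 8122, 5562, 8361, 6049 and 7258 in MLPKO-cRADKO mice 1 to 5. The genotypes overlapped (log2 fold change −0.38, SE 0.20, edgeR adjusted p = 0.29), and because reads were summed over the entire gene and over all cells of the tissue, this value does not check the deletion. Csrp3 still gave 41726 to 134796 normalized counts in MLPKO and 28553 to 48663 in MLPKO-cRADKO. Its log2 fold change was −1.08 (SE 0.29, edgeR adjusted p = 0.0667, DESeq2 adjusted p = 0.0362). Here too reads were summed over the entire gene, so these counts do not check the knockout. MLPKO mice 2 and 5 stood apart on the first principal component of all genes (55.72 and 22.52, against −24.02 to 12.04 in the other mice), so member values are given with mouse numbers. Cardiomyocyte markers were abundant in all libraries. Of 6 skeletal muscle markers, the myosin Myh4 was at 0 in all libraries and 2 passed the count filter. Actn3 reached 59.5 normalized counts and Tnnt3 59.

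No member passed the edgeR quasi-likelihood test at an adjusted p under 0.05, beside 2.74% of all tested genes. At an unadjusted p under 0.05 the count was 2 of 10, Tgfb2 and Bambi, beside 21.6% of all tested genes. DESeq2 called 1 of 10, Bambi, beside 9.65% of all genes, and limma-voom called 0 of 10. The genotypes overlapped in 10 of 10 members, while 6.62% of all tested genes had no overlap. The log2 fold change, MLPKO-cRADKO against MLPKO throughout, was negative in 8 members and positive in 2, with a median of −0.16 and a range of −1.31 to 0.19. Over all tested genes the median was 0.01, and 47.9% were lower. Each value below is a normalized count, which is the count divided by the library's relative effective size, unless another scale is named.

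**Figure D1:**
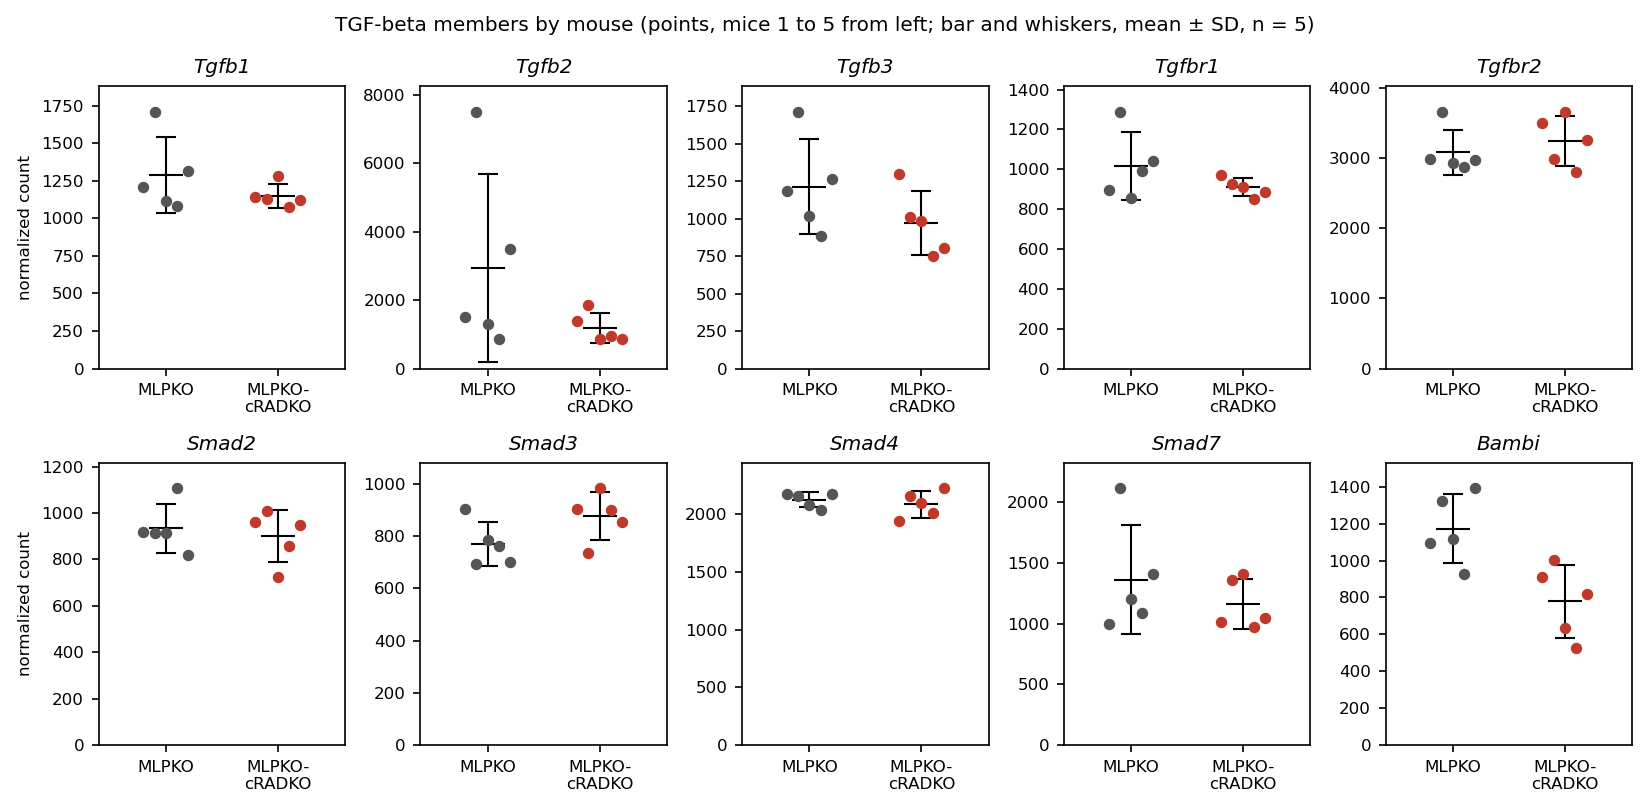
Normalized counts (vertical axis, from 0) of the 10 members in each mouse (points, mice 1 to 5 from left to right within a genotype), with mean ± SD (n = 5). Tgfb2 in MLPKO ranged from 871 to 7501, whereas the 5 MLPKO mice lay between 2042 and 2181 for Smad4. Bambi lies between 926 and 1392 in MLPKO and between 527 and 1005 in MLPKO-cRADKO.

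Among the ligands, Tgfb2 had the widest spread. Tgfb2 (ENSMUSG00000039239, chromosome 1, 186354985 to 186438294, minus strand, GRCm39) encodes the isoform best known for its role in heart and valve development. In MLPKO mice 1 to 5 it had 1518, 7501, 1309, 871 and 3499 normalized counts. In MLPKO-cRADKO mice 1 to 5 it had 1385, 1858, 865, 950 and 869. MLPKO mice 2 and 5 lay above all 5 MLPKO-cRADKO mice, and the other 3 MLPKO mice lay within the range of the MLPKO-cRADKO mice.

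Tgfb2 averaged 2940 ± 2742 (SD, n = 5) in the MLPKO mice and 1186 ± 433 (SD, n = 5) in the MLPKO-cRADKO mice. This gave a log2 fold change of −1.31 (SE 0.52, 95% interval −2.44 to −0.18, edgeR adjusted p = 0.169). Without MLPKO mouse 2 it was −0.60 (edgeR adjusted p = 0.372). The medians were closer than the means, at 1518 and 950. The difference was thus not larger than the spread between mice, which was itself unequal: the coefficient of variation was 93.3% in MLPKO and 36.5% in MLPKO-cRADKO.

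Across the 10 mice, the 3 genes whose mean-centred log2 CPM (counts scaled to a library of fixed size) lay nearest to Tgfb2 were Hbegf, Synpo2l and Xirp1. Hbegf, a membrane-bound growth factor of the epidermal growth factor family, differed from Tgfb2 by a mean of 0.16 log2 units per mouse, where Tgfb2 itself deviated from its mean by 0.74. Synpo2l and Xirp1, which encode actin-binding proteins of striated muscle, each differed by 0.24. In MLPKO mice 1 to 5, Hbegf had 1702, 7095, 1427, 1120 and 3830 normalized counts, and in MLPKO-cRADKO mice it had 1390, 1828, 1188, 1164 and 1166. Synpo2l reached 73558 and 48907 in MLPKO mice 2 and 5, against 9483 to 22529 in the other 8 mice. The same 2 mice were also the highest for Xirp1, at 59105 and 45114. The edgeR adjusted p was 0.151 for Hbegf, 0.109 for Synpo2l and 0.134 for Xirp1, so these genes did not pass the test either. They were chosen for likeness to Tgfb2 over these mice, so their high values in MLPKO mice 2 and 5 follow from the choice.

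**Figure D2:**
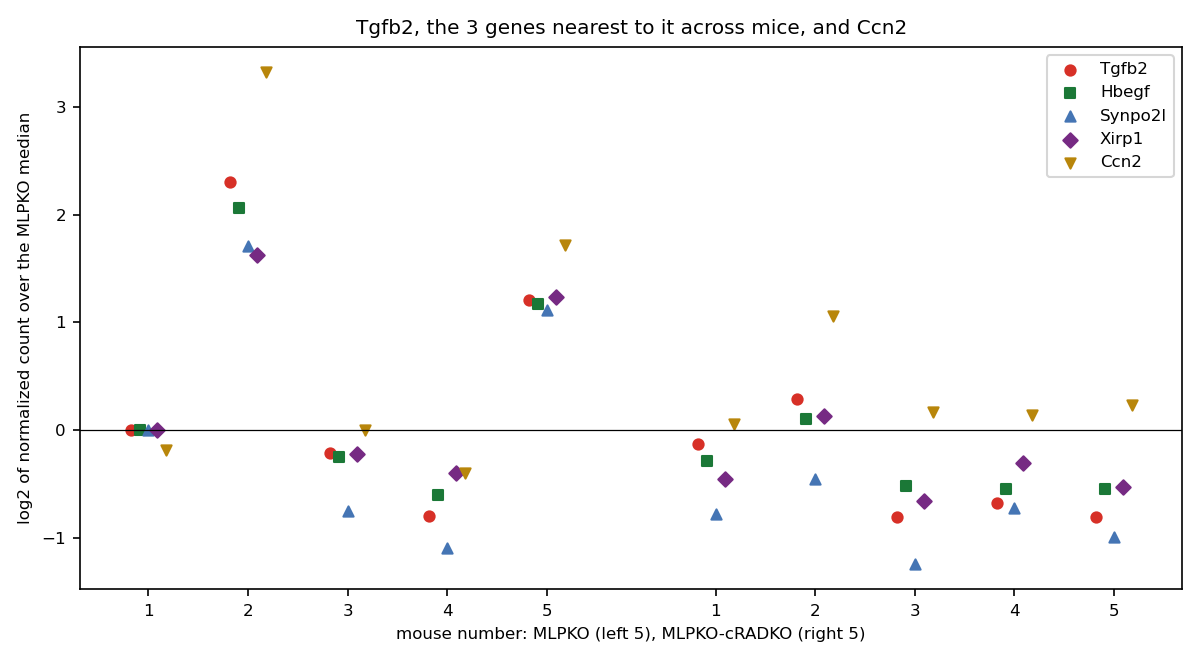
Log2 of the normalized count over the MLPKO median (vertical axis) in each mouse (horizontal axis) for Tgfb2, its 3 nearest genes, and Ccn2. MLPKO mice 2 and 5 are the highest for each of the 5 genes; for Tgfb2 they lie 2.30 and 1.20 above the MLPKO median. The 3 nearest genes were chosen for their likeness to Tgfb2 across these mice.

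The summed levels of the cardiomyocyte and of the atrial marker list were also highest in MLPKO mice 2 and 5. The sum of 6 cardiomyocyte markers was 55869 and 55714 CPM in these mice, within a range of 48108 to 55869 CPM in MLPKO, and 36080 to 47683 CPM in MLPKO-cRADKO. Most of this sum was Myh6. Myh6, Tnnt2 and Actn2 were highest in these mice, whereas Tnni3, Ryr2 and Pln were not. In MLPKO mouse 2, Pln (35941 normalized counts) and Tnni3 (92681) had their lowest values of all mice. The atrial list (Myl7, Myl4, Sln, Nppa and Bmp10, of which 3 of 5 were tested) had a summed level of 109 to 2440 CPM in MLPKO and 148 to 438 CPM in MLPKO-cRADKO, with 2440 and 1790 CPM in MLPKO mice 2 and 5. Most of this was Nppa, a natriuretic peptide that failing ventricles also express, with 100665 and 73737 normalized counts in these 2 mice. The sum of 6 activated fibroblast markers was 494 CPM in MLPKO mouse 2 and 126 CPM in mouse 5, within ranges of 107 to 494 CPM in MLPKO and 71.7 to 233 CPM in MLPKO-cRADKO. No marker of these lists was at or under 3 counts in all mice, and the part of these markers in the Tgfb2 values was not tested. In bulk tissue, fewer cells of a type and less RNA per cell cannot be told apart.

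The 250 bases before the start of the reference transcript are shown for Tgfb2 and for Synpo2l, which had like patterns across the mice. Synpo2l was picked from the genes nearest to Tgfb2, and the windows of Hbegf, the nearest, and of Xirp1 are not shown. Neither window shown holds an exon of its own gene. Capitals mark matches to the motifs searched on both strands. They are read from the GRCm39 genome, 5′ to 3′ on the minus strand, at chr1:186438295-186438544 for Tgfb2 and chr14:20718423-20718672 for Synpo2l.
Tgfb2: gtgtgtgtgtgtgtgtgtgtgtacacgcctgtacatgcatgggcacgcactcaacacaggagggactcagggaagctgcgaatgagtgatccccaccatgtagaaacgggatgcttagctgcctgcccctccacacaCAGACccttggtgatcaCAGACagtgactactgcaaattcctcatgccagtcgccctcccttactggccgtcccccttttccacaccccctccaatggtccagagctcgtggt
Synpo2l: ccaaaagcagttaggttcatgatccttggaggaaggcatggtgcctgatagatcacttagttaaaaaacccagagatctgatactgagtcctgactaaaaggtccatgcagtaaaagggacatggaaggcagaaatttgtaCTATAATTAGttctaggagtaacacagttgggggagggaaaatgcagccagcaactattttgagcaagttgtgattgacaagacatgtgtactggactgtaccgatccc
In Tgfb2 the capitals are 2 matches to the SMAD half-site (GTCTG, or CAGAC on the other strand), at 113 to 109 and 96 to 92 bases before the start. This short motif occurs in 41.3% of 21770 promoters of the same length. In Synpo2l the capitals are 1 match to the MEF2 site, at 109 to 100 bases before the start, a motif found in 0.505% of the promoters. Neither window held a CArG box, a TEAD site (CATTCC), a CRE (TGACGTCA), an AP-1 site (TGANTCA) or a TATA box (TATAAA), which occurred in 1.4%, 12.1%, 1.69%, 6.17% and 11.9% of promoters. The windows of Tgfb2 and Synpo2l thus share no match among the 7 motifs searched, which does not extend to Hbegf or Xirp1.

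Tgfb1 and Tgfb3 spread far less between mice. Tgfb1 (ENSMUSG00000002603, chromosome 7, 25386390 to 25404506), the isoform most studied in fibrosis, had 1208, 1711, 1119, 1082 and 1315 normalized counts in MLPKO mice 1 to 5 and 1144, 1128, 1285, 1077 and 1123 in MLPKO-cRADKO mice. MLPKO mouse 2 was again the highest, and the other values lay between 1077 and 1315 in both genotypes. Its log2 fold change was −0.16 (SE 0.11, 95% interval −0.41 to 0.09, edgeR adjusted p = 0.453), and −0.04 without MLPKO mouse 2.

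Tgfb3 (ENSMUSG00000021253, chromosome 12, 86102756 to 86126301), the third isoform, had 1185, 1715, 1016, 886 and 1263 normalized counts in MLPKO mice and 1300, 1014, 985, 753 and 802 in MLPKO-cRADKO mice. The genotypes overlapped from 886 to 1300, and the log2 fold change was −0.32 (SE 0.18, 95% interval −0.72 to 0.08, edgeR adjusted p = 0.335). Without MLPKO mouse 2 it was −0.17. Tgfb3 overlaps Ttll5 on the opposite strand, and whether the counting used strand is not given in the sources used here, so reads of the shared stretch cannot be told apart. Tgfb2, Tgfbr1, Tgfbr2, Smad4 and Bambi also overlap gene models on the opposite strand, none of them protein-coding, with the same limit.

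Per length, as CPM per kilobase of exon, the 3 ligands were of similar level in most mice. Their sum was 12.6 to 45.1 in MLPKO, with a median of 17.1, and 12.3 to 17.3 in MLPKO-cRADKO, with a median of 14.0. Tgfb2 made up 64.3% of this sum in MLPKO mouse 2 and 52.7% in mouse 5. In the other 3 MLPKO mice its share was 26.7% to 34.3%, and in MLPKO-cRADKO mice 23.8% to 41.6%. MLPKO mice 2 and 5 were thus the mice in which a single ligand gave most of the ligand transcript.

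**Figure D3:**
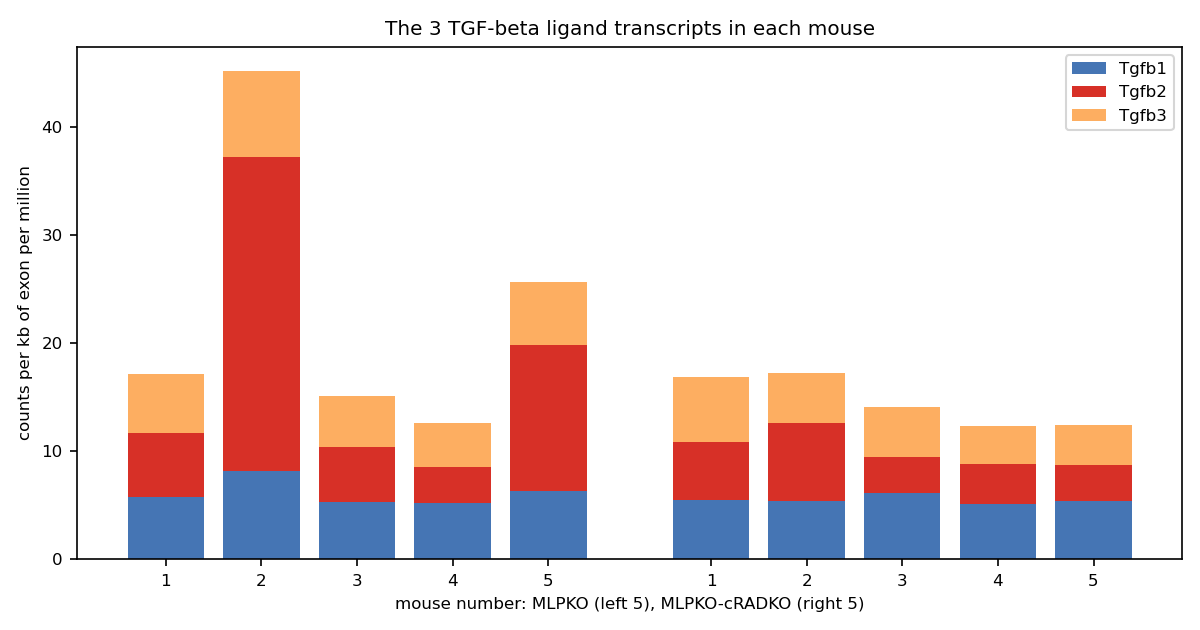
Levels of Tgfb1, Tgfb2 and Tgfb3 in each mouse, stacked, in CPM per kilobase of exon (vertical axis, from 0). The sum reaches 45.1 in MLPKO mouse 2 and 25.6 in MLPKO mouse 5, and lies between 12.3 and 17.3 in the other 8 mice.

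Neither receptor passed the test, and both overlapped between genotypes. Tgfbr1 (ENSMUSG00000007613, chromosome 4, 47353134 to 47414931), the type I receptor kinase, had 895, 1289, 856, 990 and 1043 normalized counts in MLPKO mice and 972, 928, 912, 851 and 884 in MLPKO-cRADKO mice. The difference was −0.16 on the log2 scale (SE 0.10, 95% interval −0.38 to 0.06, edgeR adjusted p = 0.401), and −0.06 without MLPKO mouse 2. The MLPKO-cRADKO mice were closer together, with a coefficient of variation of 5.0% against 16.8% in MLPKO.

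Tgfbr2 (ENSMUSG00000032440, chromosome 9, 115913361 to 116004800), the type II receptor that binds the ligand first, had 2986, 3664, 2931, 2871 and 2976 normalized counts in MLPKO mice and 3499, 2986, 3667, 2809 and 3263 in MLPKO-cRADKO mice. MLPKO mouse 2 lay above the other 4 MLPKO mice, which were within 2871 to 2986. Its log2 fold change was 0.07 (SE 0.09, 95% interval −0.12 to 0.27, edgeR adjusted p = 0.69), 1 of the 2 positive values among the members, and 0.14 without MLPKO mouse 2.

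Bambi (ENSMUSG00000024232, chromosome 18, 3507871 to 3516404) encodes a transmembrane decoy that resembles a type I receptor without its kinase domain. It had 1097, 1322, 1119, 926 and 1392 normalized counts in MLPKO mice 1 to 5 and 910, 1005, 632, 527 and 818 in MLPKO-cRADKO mice 1 to 5. A single MLPKO mouse, number 4 with 926, lay below the highest MLPKO-cRADKO mouse, number 2 with 1005; the remaining values did not cross. The means were 1171 ± 187 (SD, n = 5) and 778 ± 197 (SD, n = 5), so that the MLPKO-cRADKO mean was 66.5% of the MLPKO mean.

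The log2 fold change of Bambi was −0.59 (SE 0.17, 95% interval −0.96 to −0.22, unadjusted p = 0.00469 by edgeR), with an edgeR adjusted p of 0.0768. DESeq2 gave an adjusted p of 0.0142 and limma-voom one of 0.07. Of the 10 edgeR fits that each left out a mouse, 1 called Bambi, that without MLPKO mouse 4 (adjusted p = 0.0458). In that fit, calls over all tested genes rose from 369 to 826. The highest edgeR adjusted p of the 10 fits was 0.168. Over these fits the log2 fold change of Bambi stayed between −0.69 and −0.47, so its direction did not rest on MLPKO mouse 2 (−0.54 without it). The cardiomyocyte marker sum given beside Tgfb2 was also lower in MLPKO-cRADKO, with 5 of 6 markers lower, 1 of them, Tnnt2, past the test, and its part in the Bambi values was not tested.

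The 3 genes nearest to Bambi across the 10 mice were Rorb, Abcb4 and Satb1, with mean differences of 0.10, 0.11 and 0.13 log2 units per mouse, where Bambi itself deviated from its mean by 0.33. Abcb4, a phospholipid transporter, had 2614 to 3979 normalized counts in MLPKO and 1736 to 2668 in MLPKO-cRADKO, and passed the test with a log2 fold change of −0.57 (edgeR adjusted p = 0.043). Rorb, a nuclear receptor (−0.55, edgeR adjusted p = 0.176), and Satb1, a chromatin organizer (−0.44, edgeR adjusted p = 0.0851), did not pass. The 3 genes were chosen for likeness to Bambi over both genotypes, so their lower values in MLPKO-cRADKO follow from the choice.

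The receptor-activated SMADs had positive and negative values. Smad2 (ENSMUSG00000024563, chromosome 18, 76374327 to 76445180), a direct substrate of the type I receptor, had 820 to 1107 normalized counts in MLPKO and 724 to 1010 in MLPKO-cRADKO. Its log2 fold change was −0.05 (SE 0.10, 95% interval −0.27 to 0.17, edgeR adjusted p = 0.815). Smad3 (ENSMUSG00000032402, chromosome 9, 63554049 to 63665476), the SMAD of this pair that binds DNA directly in its common form, had 903, 694, 783, 760 and 702 normalized counts in MLPKO mice and 903, 734, 983, 901 and 855 in MLPKO-cRADKO mice. In MLPKO, mouse 1 stood above the other 4 mice, at the same value as MLPKO-cRADKO mouse 1. Its difference of 0.19 on the log2 scale (SE 0.09, 95% interval −0.02 to 0.39, edgeR adjusted p = 0.272) is the other positive value.

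Smad4 (ENSMUSG00000024515, chromosome 18, 73769343 to 73836915), the common partner of the receptor-activated SMADs, had the lowest coefficient of variation of the members in MLPKO, though not in MLPKO-cRADKO, where that of Tgfbr1 was lower. It had 2180, 2163, 2082, 2042 and 2181 normalized counts in MLPKO mice and 1941, 2164, 2099, 2009 and 2228 in MLPKO-cRADKO mice. The coefficient of variation was 3.0% in MLPKO and 5.53% in MLPKO-cRADKO, and the log2 fold change was −0.03 (SE 0.05, 95% interval −0.14 to 0.09, edgeR adjusted p = 0.808). This interval was the narrowest among the members.

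Smad7 (ENSMUSG00000025880, chromosome 18, 75500374 to 75529006), an inhibitory SMAD that TGF-β itself induces and that blocks the type I receptor, had 999, 2116, 1204, 1085 and 1406 normalized counts in MLPKO mice and 1011, 1359, 1406, 972 and 1049 in MLPKO-cRADKO mice. MLPKO mouse 2 was again the highest, and the other 4 MLPKO mice covered almost the same range as the 5 MLPKO-cRADKO mice. Between genotypes the log2 fold change was −0.23 (SE 0.19, 95% interval −0.65 to 0.19, edgeR adjusted p = 0.529), and −0.02 without MLPKO mouse 2.

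Levels of different members can be set side by side per length only. On the scale of CPM per kilobase of exon, the median order in MLPKO was Tgfbr2 (8.19), Smad4 (7.21), Smad7 (6.14), Tgfb2 (5.87), Tgfb1 (5.75), Tgfb3 (5.50), Bambi (5.28), Tgfbr1 (3.62), Smad3 (3.17) and Smad2 (1.97). Of these neighbours, the ranges over the 5 mice were apart for Tgfbr2 and Smad4 and for Smad3 and Smad2, and overlapped for the rest. In MLPKO-cRADKO, Tgfbr2 (8.98) and Smad4 (7.0) again came first and Smad2 (2.04) last, while Tgfb2 (3.67) was in place 8 rather than 4. The ranges of neighbours were apart for Tgfbr2 and Smad4, for Smad4 and Tgfb1, and for Tgfbr1 and Smad2. The type II receptor thus had the highest median level of the 10 and Smad2 the lowest in both genotypes, and the order of most members between them was within their spread.

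Beyond the 10 members, 87 further genes of the pathway were grouped in 5 lists, chosen like the members with earlier results of these data known. Shares called therefore describe the lists and do not test them. Of the 87 genes, 80 were tested. By edgeR, 5 were higher and 1 was lower in MLPKO-cRADKO at an adjusted p under 0.05, and 74 did not pass, which is 7.5% called beside 2.74% of all tested genes. Over all tested genes, edgeR called 242 lower and 127 higher. DESeq2 called 12 of the 80, beside 9.65% of all tested genes. Of these 12, 6 were lower and 6 higher, so the lean towards higher calls was not seen with it. The median log2 fold change of the 80 was −0.03, beside 0.01 over all tested genes.

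Among 15 genes of latency and activation, 1 was lower and 0 were higher (6.67% called, beside 2.74% of all tested genes), and the median was −0.05. The gene that fell was Itgb5, an integrin subunit that with Itgav can release latent TGF-β. It had 9749, 11103, 8810, 7713 and 8991 normalized counts in MLPKO mice and 7302, 6395, 7110, 6580 and 6649 in MLPKO-cRADKO mice, with no overlap, as for 6.62% of all tested genes. Its log2 fold change was −0.45 (SE 0.09, edgeR adjusted p = 0.0277). The call was lost without MLPKO mouse 1 or 5, or without any of MLPKO-cRADKO mice 2 to 5 (edgeR adjusted p 0.0572 to 0.0744). The lower cardiomyocyte marker sum given above moved with it, and its part was not tested. Thbs1, thrombospondin 1, an activator of latent TGF-β, had a log2 fold change of −0.88 (edgeR adjusted p = 0.12). Nrros, which anchors latent TGF-β on macrophages and microglia, had one of 0.46 (edgeR adjusted p = 0.0689, DESeq2 adjusted p = 0.0155). Beside Nrros, 6 of 6 macrophage markers were higher and 0 of 6 passed edgeR (6 had an unadjusted p under 0.05, DESeq2 called 3, limma-voom 0). Over all tested genes, 21.6% had an unadjusted p under 0.05 by edgeR and DESeq2 called 9.65%. For the macrophage markers these values are given as levels only. Their summed level was 92.1 to 138 CPM in MLPKO and 117 to 211 CPM in MLPKO-cRADKO, with none at 0, and their part was not tested.

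Among 6 co-receptors, other type I receptors and their ligand-binding partners, 1 was higher (16.7% called, beside 2.74% of all tested genes), and the median was 0.16. It was Lrg1, a secreted glycoprotein that binds the co-receptor endoglin, with 279 to 406 normalized counts in MLPKO and 416 to 544 in MLPKO-cRADKO (log2 fold change 0.50, SE 0.12, edgeR adjusted p = 0.0463). The call held without MLPKO mouse 3 or 4 and was lost in the other 8 fits that left out a mouse (edgeR adjusted p 0.0606 to 0.105), as well as with limma-voom (adjusted p = 0.053) and without the count filter (edgeR adjusted p = 0.0501). Beside Lrg1, 6 of 6 endothelial markers were higher and 1, Tek, passed the test, with a summed level of 634 to 719 CPM in MLPKO and 747 to 859 CPM in MLPKO-cRADKO and none at 0; their part was not tested. Cd109, another co-receptor, had a log2 fold change of 0.48 (edgeR adjusted p = 0.272).

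Of 20 intracellular modulators, 19 were tested and 0 passed edgeR (4 had an unadjusted p under 0.05, DESeq2 called 2 and limma-voom 0), with a median of −0.06. These counts are near the shares of all tested genes, 21.6% at an unadjusted p under 0.05 and 9.65% by DESeq2. Map3k7, the kinase TAK1 of the branch that does not use SMADs, had 3245 to 4441 normalized counts in MLPKO and 2655 to 3331 in MLPKO-cRADKO (log2 fold change −0.38, edgeR adjusted p = 0.0594, DESeq2 adjusted p = 0.00821). Dab2, an endocytic adaptor, had a log2 fold change of 0.29 (edgeR adjusted p = 0.204).

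The branch of bone morphogenetic proteins (BMPs), related ligands that signal through other SMADs, had 16 of 20 genes tested, with a median of 0.09. Of these, 3 were called higher and 0 lower, which is 18.8% called beside 2.74% of all tested genes. Bmp2 had 42.0, 44.5, 27.7, 22.0 and 45.6 normalized counts in MLPKO mice and 71.7, 77.4, 76.8, 88.4 and 71.1 in MLPKO-cRADKO mice (log2 fold change 1.08, SE 0.22, edgeR adjusted p = 0.0308). Bmp7 had 32.5, 15.7, 22.8, 30.9 and 16.4 against 34.6, 45.0, 91.5, 63.5 and 65.4 (log2 fold change 1.33, SE 0.31, edgeR adjusted p = 0.0461). Both are ligands at low counts, and the genotypes did not overlap for either, as for 6.62% of all tested genes. Bmper, a secreted BMP-binding protein, had 129 to 157 normalized counts in MLPKO and 169 to 312 in MLPKO-cRADKO (log2 fold change 0.71, SE 0.16, edgeR adjusted p = 0.0395). Across the list, 11 log2 fold changes were positive and 5 negative, and 13 genes were not called. Among these were Bmp4 (−0.41, edgeR adjusted p = 0.228) and Id1, Id2 and Id3 (0.21, 0.17 and 0.09, edgeR adjusted p 0.365, 0.435 and 0.717), named after their values were seen.

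These BMP calls were each lost in most fits that left out a mouse. In these fits the log2 fold changes were 0.95 to 1.18 for Bmp2, 1.14 to 1.48 for Bmp7 and 0.57 to 0.80 for Bmper. Calls over all tested genes also fell, from 369 to between 47 and 347, in each such fit but that without MLPKO mouse 4. That of Bmp2 held without MLPKO mouse 2 or 4 or MLPKO-cRADKO mouse 1, that of Bmp7 without MLPKO mouse 4 or MLPKO-cRADKO mouse 1, and that of Bmper without MLPKO mouse 2 or 4 or MLPKO-cRADKO mouse 4. Where the call was lost, the edgeR adjusted p was 0.0554 to 0.0723 for Bmp2, 0.0632 to 0.105 for Bmp7 and 0.0579 to 0.0904 for Bmper. With limma-voom, the adjusted p was 0.0542 for Bmp7 and 0.0516 for Bmper, and without the count filter that of Bmp7 was 0.0515. The endothelial markers given beside Lrg1 moved with them. Of the fibroblast markers, 4 of 6 were higher and Dpt passed the test, while Pdgfra (log2 fold change −0.02) and Lum (−0.30) were lower. Their summed levels overlapped (1795 to 2215 CPM in MLPKO and 1933 to 2670 CPM in MLPKO-cRADKO, none at 0). Activated fibroblast markers were lower in 5 of 5 tested, though Postn by a log2 fold change of −0.03 only. The part of these lists was not tested.

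**Figure D4:**
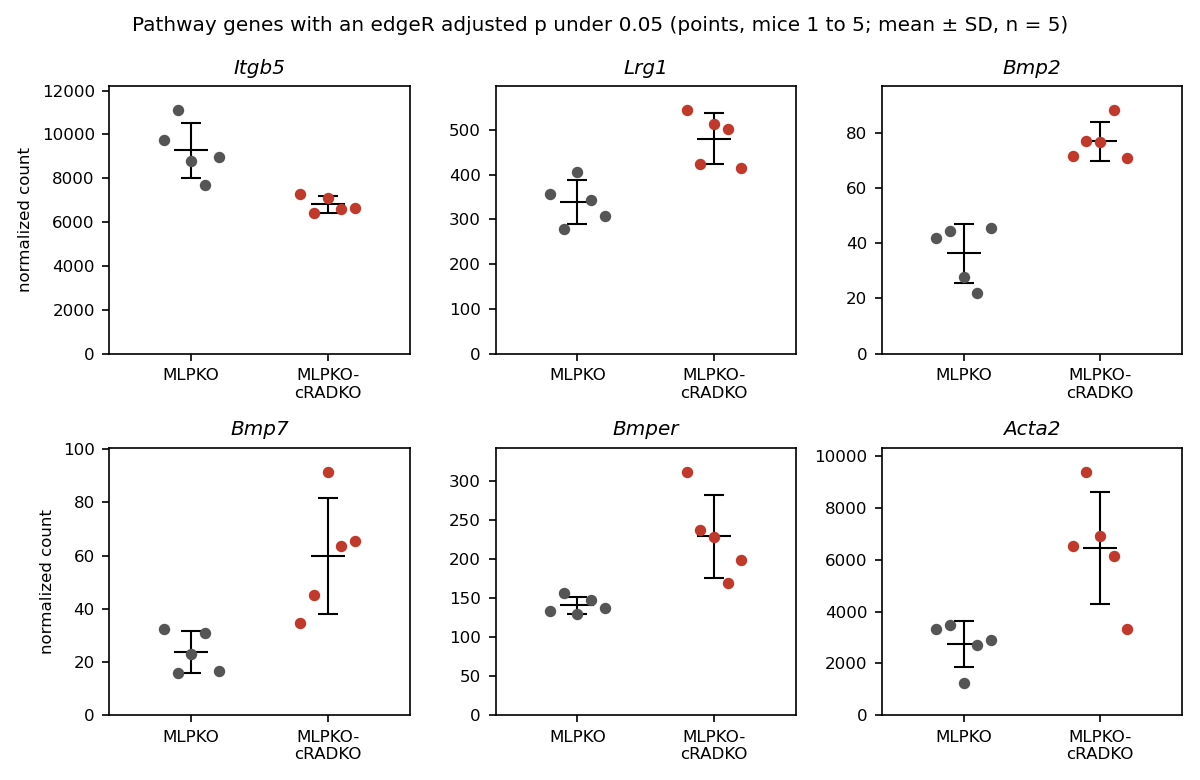
Normalized counts (vertical axis, from 0) of the 6 pathway genes with an edgeR adjusted p under 0.05, by mouse, with mean ± SD (n = 5). Itgb5 is lower and the other 5 genes are higher in MLPKO-cRADKO, and the genotypes overlap for Acta2 alone.

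Of 26 genes known to respond to TGF-β, 24 were tested, with a median of −0.12. By edgeR, 1 was higher and 0 were lower, which is 4.17% called beside 2.74% of all tested genes. The gene that rose was Acta2, smooth muscle actin, a marker of smooth muscle and of myofibroblasts. It had 3324, 3487, 1256, 2720 and 2912 normalized counts in MLPKO mice and 6541, 9400, 6912, 6141 and 3316 in MLPKO-cRADKO mice, where mouse 5 overlapped with MLPKO. For Acta2 the log2 fold change was 1.24 (SE 0.29, edgeR adjusted p = 0.0461), and the call was lost without MLPKO mouse 1 or 5 or any of MLPKO-cRADKO mice 1 to 4 (edgeR adjusted p 0.0736 to 0.0963). It was also lost with a robust edgeR fit (adjusted p = 0.0665) and with limma-voom (adjusted p = 0.0516). Beside it, 5 of 6 smooth muscle and pericyte markers were higher, though Myh11 by a log2 fold change of 0.01 only, and Rgs5 passed the test. Their summed level was 791 to 1004 CPM in MLPKO and 979 to 1088 CPM in MLPKO-cRADKO, with none at 0. Activated fibroblast markers had negative log2 fold changes in 5 of 5 tested, with a median of −0.34, and 0 passed edgeR. For Postn (−0.03) and Fap (−0.12) the difference was small. Comp and Thbs4 were highest in MLPKO mouse 2 (1624 and 11131 normalized counts), and the median of Comp was higher in MLPKO-cRADKO (288 against 190). Postn, Meox1, Comp and Fap are also among the response genes. The part of either marker list was not tested.

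Ccn2, connective tissue growth factor, had 3631, 41422, 4126, 3126 and 13598 normalized counts in MLPKO mice and 4295, 8577, 4641, 4531 and 4851 in MLPKO-cRADKO mice. As for Tgfb2, MLPKO mice 2 and 5 were the highest, but the other 3 MLPKO mice lay below all 5 MLPKO-cRADKO mice. Its log2 fold change was −1.29 (SE 0.65, edgeR adjusted p = 0.278), and −0.19 without MLPKO mouse 2. Cnn1, the smooth muscle protein calponin 1, had 2249 in MLPKO mouse 2 against 182 to 342 in the other MLPKO mice and 86.0 to 240 in MLPKO-cRADKO (log2 fold change −2.17, edgeR adjusted p = 0.103, and −0.87 without MLPKO mouse 2). The collagens Col1a1 (−0.17, edgeR adjusted p = 0.739) and Col3a1 (0.37, edgeR adjusted p = 0.308), named after their values were seen, did not pass.

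**Figure D5:**
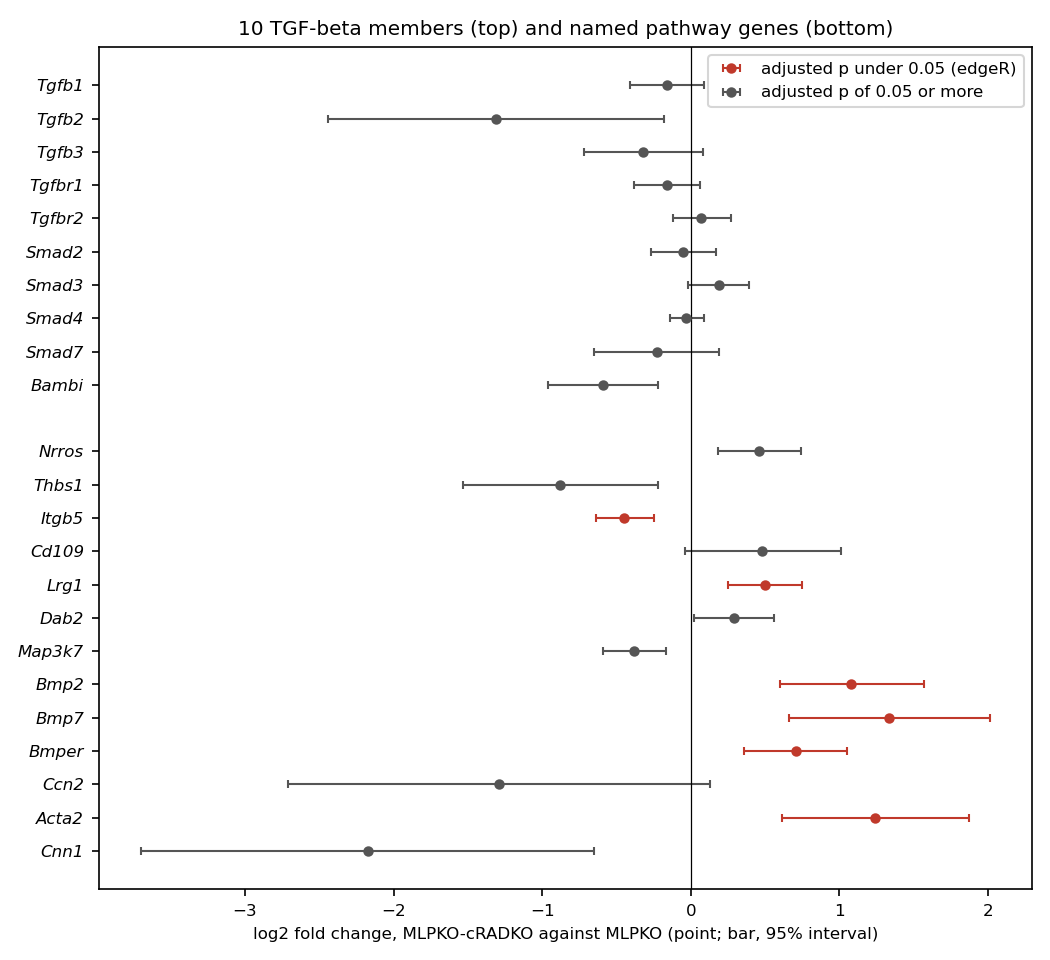
Log2 fold change, MLPKO-cRADKO against MLPKO (horizontal axis; point, with the 95% interval as a bar), of the 10 members and of 13 named pathway genes. The 6 red genes have an edgeR adjusted p under 0.05; among the members the interval excludes 0 for Tgfb2 and Bambi, before adjustment over all genes.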

How the data were processed

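RNA of ventricular apex tissue was enriched for polyadenylated transcripts and sequenced as 1 library per mouse. After FastQC, the authors used STAR on GRCm39 and featureCounts for gene counts (versions not given in the sources used here), and the deposited values are raw counts. Even numbers made up 73.7% to 80.3% of the counts from 1 to 20 in each library, and whether reads or read pairs were counted is not given in the sources used here. Predicted (Gm) and RIKEN (Rik) gene models were left out, as were genes that failed to exceed a count of 10 in 6 or more of the 10 mice, after the study's methods. The genotypes were compared with edgeR 4.0.16 (TMM, quasi-likelihood test, Benjamini-Hochberg over 13453 genes) in R 4.3.3, in place of the study's DESeq2, which was an alternative (version 1.42.0) beside limma-voom (3.58.1), other size factors and filters, a replicate block and leaving out each mouse. Scripts were tested on simulated data. Nothing used here says that the 5 mice of a genotype differ in litter or day, so p-values measure the spread between these mice. Intervals of fold changes are from the edgeR fit. Levels per length used the exon length of GENCODE M39, which also gave names and positions, and motifs were searched in the 250 bases before 21770 transcript starts. The members and lists were chosen with earlier results of these data known. Named pathway genes are those with an adjusted p under 0.05 and the 2 largest log2 fold changes of each list, and nearest genes are given for the 2 members of smallest p. Of the 87 genes of the pathway lists, 7 did not pass the count filter.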

Additional observations from a re-analysis of the deposited data

Results flagged for a closer look

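In 4 of 46 groups of 5 mice (23 named genes in each genotype), 1 mouse lay farther from the others than Dixon's 95% critical value of 0.71 allows. Chance flags about 5% of groups, but this rate does not apply to genes named for a large fold change that the same mouse makes, as for Ccn2 and Cnn1. For 3 of the 4 this was MLPKO mouse 2. Tgfbr2 had 3664 normalized counts there, against 2871 to 2986 in the other 4 MLPKO mice. Ccn2 had 41422 there, against 3126 to 13598, and Cnn1 had 2249, against 182 to 342. In MLPKO-cRADKO, Ccn2 had 8577 normalized counts in mouse 2, against 4295 to 4851 in the other 4 mice.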

How the results depend on the processing

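The number of members called was 0 in the main edgeR test, 1 (Bambi) with DESeq2 and with the replicate block, and 0 to 1 when each mouse was left out. Besides Smad2, whose log2 fold change was −0.09 to 0.02 with a mouse left out (0.02 without MLPKO mouse 4 and without MLPKO-cRADKO mouse 3), the members kept their direction in the alternatives run. Latency and activation had 2 calls with DESeq2 and 0 to 2 with a mouse left out; co-receptors and other type I receptors had 0 without the count filter and with limma-voom, and 0 to 2 with a mouse left out; intracellular modulators had 2 with DESeq2 and 0 to 1 with a mouse left out. The BMP branch had 1 with limma-voom, 0 with the replicate block and 0 to 3 with a mouse left out, and the response genes had 4 with DESeq2, 0 with the robust fit, limma-voom and the replicate block, and 0 to 3 with a mouse left out. Of the values of single genes, 375 kept their direction and side of the threshold, 53 lost the call and 7 gained it. The cause of these changes was not tested. Calls over all genes numbered 369, with 281 under the replicate block, 1298 with DESeq2, and 47 (without MLPKO mouse 5) to 826 (without MLPKO mouse 4). Mouse numbers do not pair the animals: correlations of deviations between mice of the same number were −0.0442 to 0.152, and those of the other 20 pairs −0.259 to 0.282. Bmp2 and Bmp7, with under 100 normalized counts per mouse, are the named genes whose precision the depth limits most.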
